A study of Mus musculus with 20 samples.

Results

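Stretches of chromatin that were open in cardiac fibroblasts of uninjured mouse hearts and in which no peak was found at any time after myocardial infarction (MI) are described here, together with the RNA of the genes beside them. The peaks of all 10 deposited ATAC-seq lists on chromosomes 1 to 19 and X were merged wherever they overlapped by at least 1 bp. Regions were kept when both uninjured lists held a peak and none of the 8 infarct lists did. That rule left 697 of 143246 merged regions, or 1.32% of the 52709 regions found in both uninjured lists. It gives 545 regions with a gene span within 100 kb in the RNA count table, and these link to 490 genes. The regions were chosen by the presence of ATAC-seq peaks, so every ATAC-seq value below that sets uninjured against infarct is a description. RNA-seq was made in other libraries that the rule did not use.

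All cells were sorted as eGFP-positive cells of the Tcf21 lineage, a lineage mark of cardiac fibroblasts, against a gate set on eGFP-negative wild-type cells. All mice, the uninjured ones included, received intraperitoneal tamoxifen at 75 mg/kg body weight each day for 5 days to switch on a MerCreMer recombinase. The groups are uninjured hearts and infarcted hearts collected after MI on day 3, on day 7, in week 2 and in week 4, with 2 ATAC-seq and 2 RNA-seq libraries each, and the labels used here give no strain, sex or age. The labels do not state whether a group's libraries are from different animals. Every p-value therefore rests on the spread among libraries, which may be technical. The uninjured group is the only control and all comparisons share its 2 libraries. In bulk RNA of sorted cells, fewer cells of a type and less RNA per cell cannot be told apart.

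ATAC-seq uses the transposase Tn5, which cuts and tags DNA where nucleosomes and other proteins leave it accessible. Promoters are accessible in most cell types, while accessible sites far from starts are often enhancers and vary more with cell state. Cardiac fibroblasts maintain the interstitial matrix of the resting heart. After an infarct they proliferate, turn into myofibroblasts that carry smooth muscle actin and periostin, and later settle in the scar.

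RNA libraries held between 16397224 and 21044044 estimated counts. The sorted cells carried RNA of the fibroblast genes Dcn (19797 and 24084 CPM, counts scaled to library size, in the uninjured libraries) and Pdgfra (730 and 778 CPM). Tcf21 itself was low, at 23.1 and 31.6 CPM in the uninjured libraries and 7.81 to 36.2 CPM in the infarct libraries. Postn, the periostin gene, stood at 431 and 630 CPM in uninjured libraries and at 2684 to 12928 CPM in the infarct libraries, and Acta2, the smooth muscle actin gene, at 91.8 and 191 against 230 to 1283 CPM, so neither gene's groups overlapped. Markers of other cells moved as well. The summed level of the 21 macrophage and monocyte markers was 82.0 to 95.8 CPM in uninjured libraries, with Itgam and Itgax at 0 there, and it was 754 to 1256 CPM at day 3, 1954 to 3444 CPM at day 7, 579 to 619 CPM at week 2 and 195 to 290 CPM at week 4. The erythroid sum, mostly the globin genes Hbb-bs, Hba-a2 and Hba-a1, went the other way, from 4133 to 5989 CPM in uninjured libraries to between 142 and 3719 CPM in the infarct libraries. Schwann and nerve markers summed to 1728 to 1817 CPM in uninjured libraries and to 608 to 1504 CPM after MI, with Sox10 at 0 in both uninjured libraries.

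Few of these regions lay at a transcript start, and where one did its sequence can be read from the RefSeq promoter windows (GRCm38.p6), which run from 250 bases before to 50 bases after a start. Of the 697 regions, 9 overlapped such a window and 5 held one whole. The table leaves some starts out, so these counts are lower limits. Always open regions, those with a peak in all 10 lists, overlapped a window in 29.4% of cases. Shown here are the start of Amy1, the salivary-type amylase gene, because its RNA was also measured and fell, the start of the predicted gene E030025P04Rik, because its region ranked 12 of 697 by peak height, and the start of the non-coding gene Pinc. All 3 are on the minus strand of the mm10/GRCm38 build and written 5' to 3' along the gene. Capitals mark matches, on either strand, to the short motifs searched in every window, CpG left out.
Amy1 (chr3:113574713-113575012, inside the region chr3:113574326-113575176): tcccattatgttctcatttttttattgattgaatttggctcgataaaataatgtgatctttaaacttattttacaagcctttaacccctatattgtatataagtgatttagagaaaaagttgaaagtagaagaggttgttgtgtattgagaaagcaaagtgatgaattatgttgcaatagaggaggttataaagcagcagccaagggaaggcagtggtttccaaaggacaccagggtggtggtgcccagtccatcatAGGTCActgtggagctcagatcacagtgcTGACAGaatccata
E030025P04Rik (chr11:109144320-109144619, inside the region chr11:109143757-109145290): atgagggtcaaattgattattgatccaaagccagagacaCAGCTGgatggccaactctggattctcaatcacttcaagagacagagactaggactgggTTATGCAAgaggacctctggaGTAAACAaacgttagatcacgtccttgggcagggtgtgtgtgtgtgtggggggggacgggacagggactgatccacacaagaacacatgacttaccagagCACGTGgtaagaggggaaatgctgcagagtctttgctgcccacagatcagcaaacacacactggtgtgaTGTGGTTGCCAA
Pinc (chr1:73407520-73407819, inside the region chr1:73407169-73407827): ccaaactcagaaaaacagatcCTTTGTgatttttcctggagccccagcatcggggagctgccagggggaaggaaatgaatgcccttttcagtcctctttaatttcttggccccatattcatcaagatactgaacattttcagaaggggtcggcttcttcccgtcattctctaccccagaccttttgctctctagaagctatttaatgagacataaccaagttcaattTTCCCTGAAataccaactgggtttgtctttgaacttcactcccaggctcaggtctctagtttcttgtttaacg
The Amy1 window held a nuclear receptor half-site (AGGTCA), found in 16.2% of 32585 RefSeq windows, and a MEIS site (TGACAG), found in 18.9%. The E030025P04Rik window held an E-box (CAGCTG, 16.4% of windows), a second E-box (CACGTG, 7.20%), a C/EBP site (TTGCNNAA, 10.9%), a forkhead site (TGTTTAC, 3.67%), an NFI half-site (TTGGCA, 14.1%) and a RUNX site (TGTGGT, 16.6%), the last 2 side by side after the start. In the Pinc window a SOX site (ACAAAG, 18.8%) and a STAT site (TTCNNNGAA, 8.33%) matched. The AP-1 site (TGANTCA, 7.85% of windows), the TEAD site (GGAATG, 14.6%), the GATA site (AGATAA, 11.2%), the KLF site (GGGNGTGG, 17.7%) and the E-box CATCTG (17.1%) matched in none of the 5 whole windows. A match describes letters only and is not a bound site.

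The regions were weak peaks. Their highest fold enrichment over background, the authors' value per peak, had a median of 4.68 in uninjured replicate 1 and 4.12 in replicate 2, with maxima of 14.98 and 17.8. Their median -log10 q was 6.20 and 5.51 and their median width 866 bp. Always open regions had medians of 14.7 and 15.4 for fold enrichment and 2759 bp for width. By mean fold over both uninjured lists, 219 of 3418 regions under 4 were lost (6.41%), 385 of 11069 from 4 to 6 (3.48%), 68 of 7044 from 6 to 8 (0.965%), 22 of 7846 from 8 to 12 (0.280%) and 3 of 23332 at 12 or above (0.0129%). The share lost thus went down with each step of height.

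**Figure D1:**
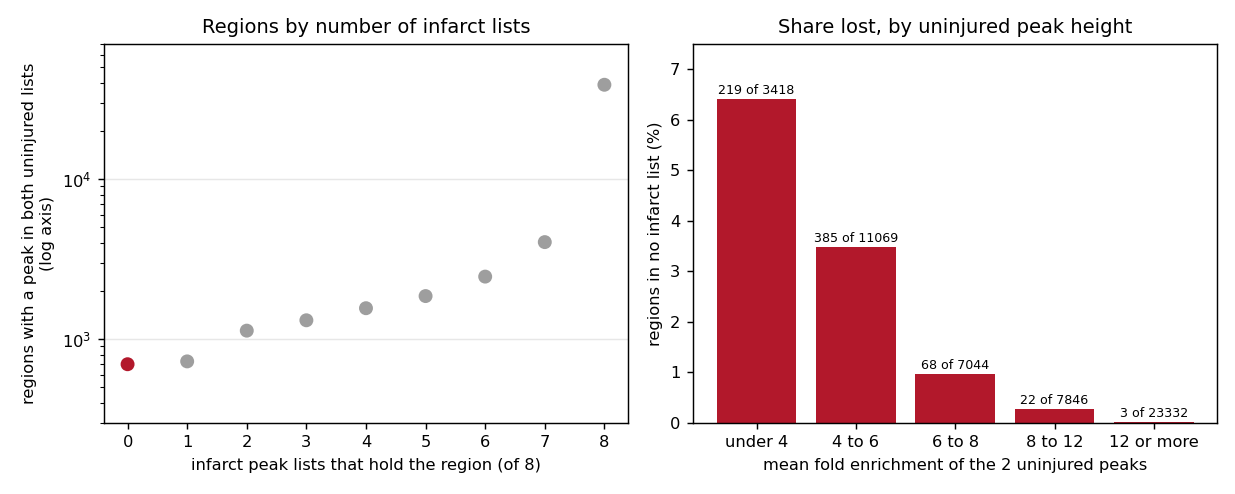
The left panel plots, on a log axis, how many of the 52709 regions with a peak in both uninjured lists were found in 0 to 8 infarct lists, with the 697 lost regions in red and 38922 at 8. The right panel gives the percentage lost in 5 bands of mean uninjured fold enrichment, from 6.41% under 4 to 0.0129% at 12 or more, with the counts above the bars.

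Just outside the rule stood 726 regions with a peak in both uninjured lists and in 1 infarct list. In 296 of them that list was day 3 replicate 1 and in 148 day 3 replicate 2, in 72 and 11 it was a day 7 list, in 38 and 63 a week 2 list and in 59 and 39 a week 4 list. Their median fold was 4.37 and 4.38, close to that of the lost regions. On the other side, 3344 regions had a peak in 1 uninjured list and in no infarct list (1351 in replicate 1 and 1993 in replicate 2), with median folds of 3.43 and 3.35. Counted the same way for each group, regions in both lists of a group and in no list of another made up 1.32% for uninjured (697 regions), 9.30% for day 3 (7793), 1.03% for day 7 (663), 0.270% for week 2 (156) and 0.355% for week 4 (179). The lists differ in length, with 63882 and 71878 peaks for uninjured, 105647 and 107774 at day 3, 93661 and 88250 at day 7, 77885 and 79654 at week 2 and 69207 and 70123 at week 4. A longer infarct list leaves fewer regions to call lost. When every list was cut to the length of the shortest, 1973 regions met the rule in place of 697. When the uninjured peaks had to reach a -log10 q of 5, 292 did. Each uninjured library also decided many regions, since 2772 met the rule without uninjured replicate 1 and 2127 without uninjured replicate 2. A list left out takes a condition away, so these counts could only stay or rise.

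Fewer of the lost regions lay close to a start, and more lay far from any gene, than among all regions. Of the 697, 337 lay in a gene span (48.4%), 208 outside but within 100 kb (29.8%) and 152 more than 100 kb from any gene in the table (21.8%). The last share was 6.35% for always open regions, 8.33% for the 1704 regions absent from both uninjured lists and present in all 8 infarct lists (opened and kept open), and 8.48% for all regions. Of the 676 lost regions on chromosomes with RefSeq starts, 25 lay within 1 kb of one (3.70%), against 30.6% of always open regions, 6.94% of opened regions and 11.5% of all regions. The 248 regions lost at day 3 and back in both week 4 lists were also far from starts (2.14% within 1 kb), and 10.9% of them lay over 100 kb from a gene. Chromosome X held 29 lost regions, 4.16% of them, against 2.59% of all regions. The nearest always open region was a median of 23030 bp away and lay within 10 kb in 215 cases (30.8%). Lost regions rarely stood together, with a median of 793587 bp to the next and 26 within 10 kb of another.

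**Figure D2:**
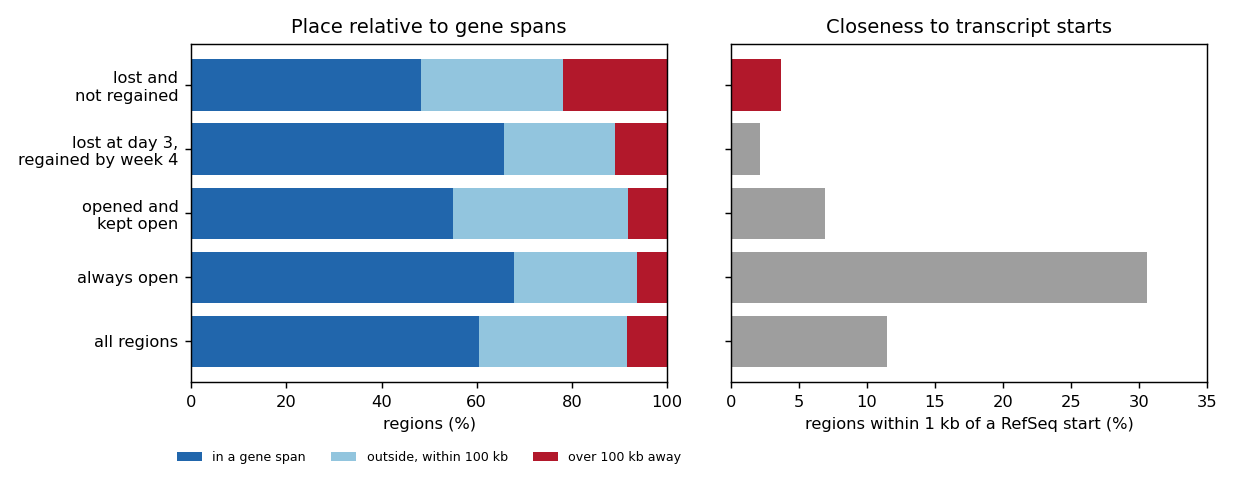
The left panel splits 5 sets of regions, in percent, into those in a gene span, those outside but within 100 kb and those farther away. The right panel gives the percentage within 1 kb of a RefSeq start, 3.70% for the lost regions in red and 30.6% for always open regions.

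Of the 10 tallest lost regions, 4 had no gene of the table within 100 kb. The highest, at chr15:83955646-83957201 in the span of the calcium-binding protein gene Efcab6, had fold enrichments of 14.0 and 17.8, and Efcab6 had 0 counts in all 10 RNA libraries. The next in height, at chr13:102274889-102276700 (14.4 and 13.6) and chr4:81610672-81611967 (14.98 and 11.8), were 2 of the 4 without a gene, and the others were chr4:153603118-153604510 (9.36 and 12.1) and chr12:77739177-77740352 (8.12 and 10.6). A region 35231 bp outside Efcab14 at chr4:115701186-115702513 had folds of 10.6 and 12.6. Efcab14 had 187 and 235 CPM in uninjured libraries and 118 and 108 CPM at day 3, where it fell (edgeR adjusted p = 0.0212), a call lost without either day 3 library or uninjured replicate 2. Styx, a pseudophosphatase gene that holds chr14:45417716-45419502 (8.43 and 10.3), stood at 33.4 and 37.4 CPM in uninjured libraries and at 20.1 to 46.2 CPM in the infarct libraries, so its groups overlapped. Tprg, 61115 bp from chr16:25224367-25225702 (10.9 and 9.78), had CPM of 0.107 and 0 in uninjured libraries and 0 elsewhere. The other 2 of the 10 tallest lay in the spans of predicted genes.

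Of the 490 linked genes, 444 had 1 lost region, 40 had 2, 4 had 3, 1 had 4 and 1 had 5. Genes with 3 or more were long. Cpq, a carboxypeptidase gene (ENSMUSG00000039007, chr15:33083129-33594552), held 5, in the pairs chr15:33276361-33277619 and chr15:33278727-33279520, and chr15:33378367-33379125 and chr15:33381473-33382150, and at chr15:33484183-33484991. The nonagouti gene a held 4, the calcium channel subunit gene Cacna2d3 and the lipid kinase gene Pik3c2g held 3 each, and none of the 3 genes exceeded 0.320 CPM in any library. The receptor phosphatase gene Ptprd also held 3, and its CPM of 22.9 and 33.9 in uninjured libraries lay within the infarct range of 4.16 to 52.8. Most of the linked genes, 427 of 490, were also linked to an always open region. The 380 linked genes tested had a median span of 103 kb, against 21.9 kb over all genes tested. Over all 490 linked genes it was 84.0 kb, and 54 of the 490 were predicted genes.

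RNA was high enough to test in 380 of the 490 linked genes. The other 110 failed the filter on low counts, and 68 of those had no count in any library. A gene that passed only through high uninjured counts had to differ, so the counts below speak of the 380 alone. At day 3, 50 linked genes fell and 11 rose (13.2% and 2.89%), where 4.4% and 7.39% of all 14968 genes tested did. At day 7, 47 fell and 4 rose (12.4% and 1.05%), beside 2.76% and 4.39% of all genes. At week 2, 10 fell and 3 rose (2.63% and 0.789%), beside 0.454% and 1.44%, and at week 4, 14 fell and 4 rose (3.68% and 1.05%), beside 0.474% and 1.85%. Over the mean of the 4 infarct groups, 42 fell and 2 rose (11.1% and 0.526%), beside 2.16% and 2.81% of all genes. These calls come from edgeR's quasi-likelihood test with Benjamini-Hochberg adjustment over all genes at 0.05. The number of falling genes depended on single libraries. In each fit named below, the share of all genes that fell moved the same way, and the linked share stayed above it. At day 3 it was 20 without day 3 replicate 2, 24 without uninjured replicate 2 and 33 without uninjured replicate 1, and over all infarct times it was 13 without uninjured replicate 2 and 23 without uninjured replicate 1. At day 7 it was 17 without day 7 replicate 2, and 12 and 28 without uninjured replicate 2 and replicate 1. At week 2 it was 3 without week 2 replicate 2, 6 and 5 without uninjured replicate 1 and replicate 2, 17 without either day 3 library and 16 without either day 7 library. At week 4 it was 7 without either week 4 library and 9 and 4 without uninjured replicate 1 and replicate 2.

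**Figure D3:**
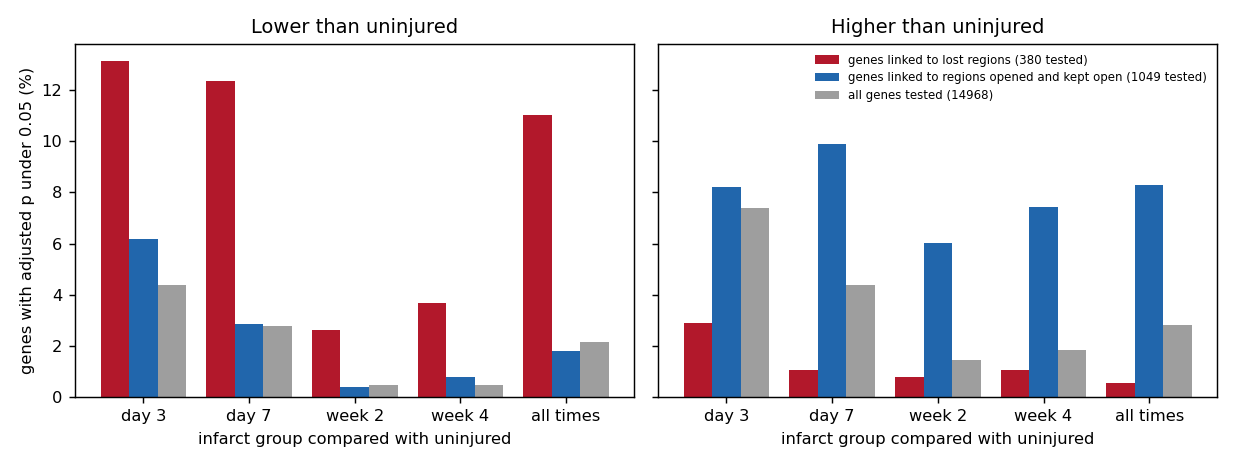
Bars give the percentage of genes with lower (left) and higher (right) RNA than uninjured at an edgeR adjusted p under 0.05, at each time and over the mean of all infarct times. Genes linked to lost regions (red) stand above all genes tested (grey) on the left and below them on the right in all 5 comparisons, and genes linked to regions opened and kept open are in blue.

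The shift was wider than the calls. The median log2 fold change of the 380 genes was -0.57 at day 3, -0.51 at day 7, -0.20 at week 2, -0.38 at week 4 and -0.43 over all infarct times, while the medians of all genes tested lay between -0.05 and 0. Over all infarct times 282 of the 380 had a log2 fold change under 0 (74.2%), beside 52.7% of all genes. All 8 infarct libraries lay below both uninjured libraries for 88 linked genes (23.2%), beside 5.74% of all genes, and above both for 7 (1.84%), beside 3.98%. Over all infarct times, genes linked to opened and kept open regions went the other way, with 19 falling and 87 rising of 1049 and a median of 0.20. At day 3 this was not seen. There 6.20% of them fell and 8.20% rose, beside 4.4% and 7.39% of all genes, with a median of 0.015. Of the 175 genes linked to regions lost at day 3 and regained by week 4, 12 fell and 8 rose over all infarct times. Their median was -0.11. At day 3, 20 of the 175 fell and 19 rose (11.4% and 10.9%), with a median of -0.39. At day 7, 16 fell and 13 rose (9.14% and 7.43%), with a median of -0.24. Their falling shares at these times were thus above those of all genes (4.4% and 2.76%), as in the lost set. Their rising shares were also above those of all genes (7.39% and 4.39%), unlike in the lost set. At week 2, 2 fell and 7 rose (1.14% and 4%, beside 0.454% and 1.44% of all genes). At week 4, 2 fell and 8 rose (1.14% and 4.57%, beside 0.474% and 1.85%). Differences between these sets were not tested.

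**Figure D4:**
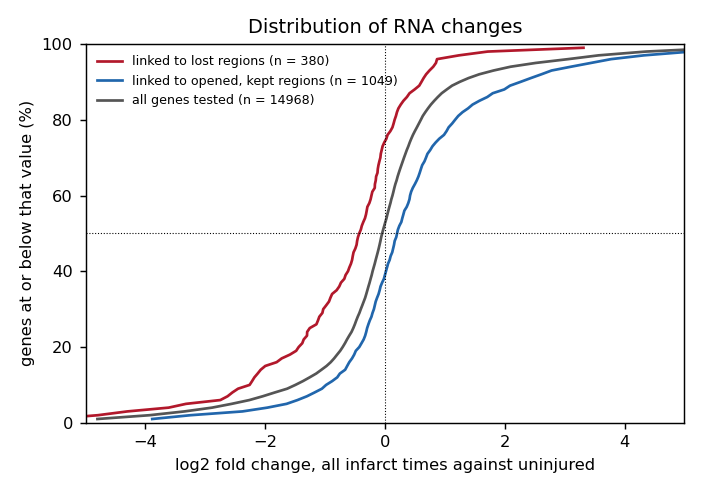
Each curve gives, for a log2 fold change over all infarct times against uninjured on the x axis, the percentage of genes at or below it. The red curve of the 380 genes linked to lost regions lies left of the grey curve of all 14968 genes, with medians of -0.43 and -0.05, and the blue curve of the 1049 genes linked to opened regions lies to its right.

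Long genes leaned lower as a class, so the counts were also read by span. Among all tested genes at least as long as the median of all 490 linked genes, 101 of 2409 fell over all infarct times (4.19%), and among linked genes of that length 26 of 212 did (12.3%). Among shorter genes the numbers were 222 of 12528 (1.77%) and 16 of 168 linked genes (9.52%). At day 3 the long genes fell in 8.14% of cases overall and in 16.04% when linked. Where the region lay in the gene span, 30 of 254 genes fell over all infarct times (11.8%). Where it lay outside, 3 of 33 fell at up to 10 kb (9.09%) and 9 of 93 beyond (9.68%). Of the genes with 2 or more lost regions, 10 of 34 fell at day 3 (29.4%) and 8 over all infarct times (23.5%). Beside them, 40 (11.6%) and 34 (9.83%) of 346 with 1 did. At day 7 the shares were 20.6% and 11.6% and at week 4 8.82% and 3.18%. At week 2, 0 of the 34 fell and 10 of the 346 (2.89%). Genes with a region whose -log10 q reached 5 in both lists fell in 24 of 139 cases at day 3 (17.3%), and the rest in 26 of 241 (10.8%). Of the 55 genes that were also linked to an opened region, 3 fell and 2 rose over all infarct times. Of the other 325, 39 fell and 0 rose. At single times the falling shares of the 55 and the 325 were mostly closer. They were 10.9% and 13.5% at day 3, 12.7% and 12.3% at day 7, 0% and 3.08% at week 2 and 3.64% and 3.69% at week 4. The 325 had 8 genes rising at day 3.

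Cpq, the gene with 5 lost regions, had lower RNA at every infarct time. It had 621 and 717 CPM in the uninjured libraries, 206 and 120 at day 3, 280 and 295 at day 7, 348 and 358 at week 2 and 350 and 316 at week 4. The groups did not overlap, and the level was lowest at day 3. It fell by 2.04 ± 0.25 on the log2 scale at day 3 (SE; edgeR adjusted p = 0.000565) and by 1.22 ± 0.25 at day 7 (adjusted p = 0.0116), the latter lost without day 7 replicate 2 or uninjured replicate 2. At week 2 and week 4 it missed the threshold (log2 fold changes of -0.92 and -1.01, edgeR adjusted p = 0.09 and 0.0534).

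Among the 12 genes that fell most by the naming rule were secreted and surface proteins of the immune system. The rule took only genes with all 8 infarct libraries below both uninjured ones. That separation was thus set by the choice and is no result for any of the 12, here or below. Ccl11, the eotaxin chemokine gene (ENSMUSG00000020676, chr11:82057823-82062955), holds the lost region chr11:82060141-82061062, a weak one with folds of 3.12 and 3.35. Its RNA was 104 and 141 CPM in the uninjured libraries, 29.0 and 14.3 at day 3, 7.38 and 1.75 at day 7, 7.88 and 7.14 at week 2 and 0.433 and 1.27 at week 4. All infarct libraries were below both uninjured ones and week 4 was lowest. It fell by 4.60 ± 0.40 on the log2 scale over all infarct times (edgeR adjusted p = 8.2e-05). Icosl, which encodes a ligand of a T cell costimulatory receptor, had 106 and 107 CPM in uninjured libraries and 6.19 to 26.7 CPM (median 7.96) in the infarct libraries. It fell by 3.32 ± 0.35 over all infarct times (edgeR adjusted p = 0.000224), and its region chr10:78081440-78082214 lies 567 bp from an always open region. Cd83, a surface protein gene best known from dendritic cells, has 2 lost regions outside its span, 37767 and 82155 bp away. It had 149 and 173 CPM in uninjured libraries and 18.8 to 73.2 CPM after MI, and fell by 2.25 ± 0.26 (edgeR adjusted p = 0.000367). None of these 3 calls over all infarct times was lost in any other fit or without any library. The part of macrophage RNA in them was not tested.

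**Figure D5:**
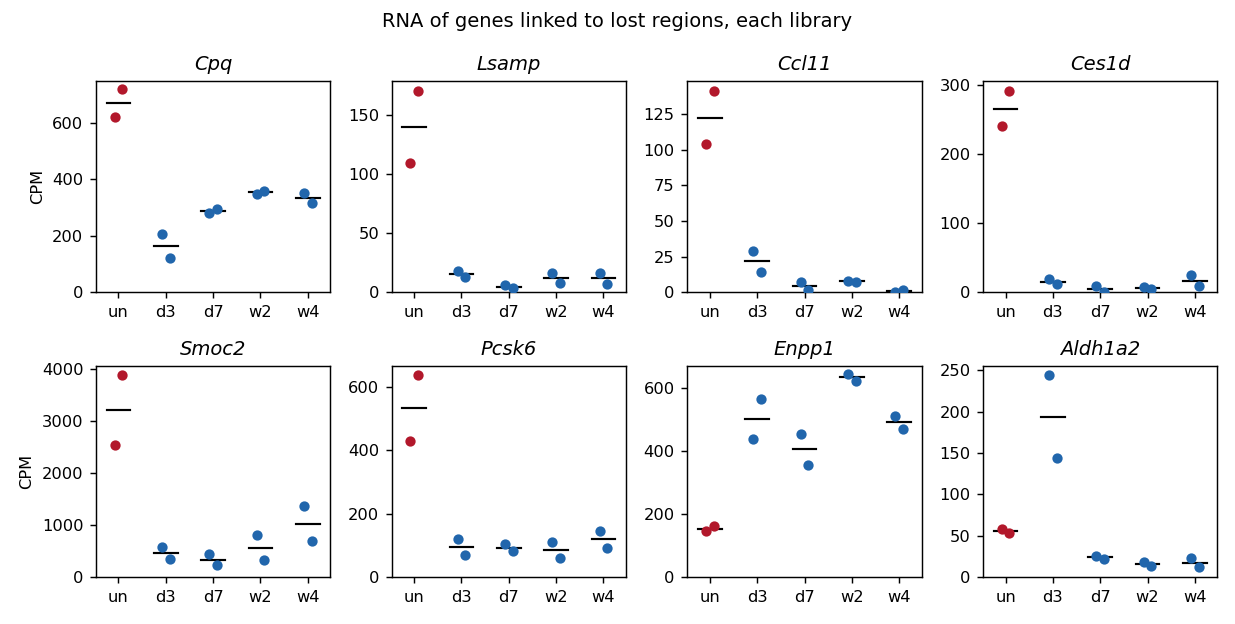
Points are CPM in each library and bars the mean of the 2 libraries of a group, for uninjured (un, red), day 3 (d3), day 7 (d7), week 2 (w2) and week 4 (w4), with a separate scale from 0 for each gene. In Cpq, Lsamp, Ccl11, Ces1d, Smoc2 and Pcsk6 all infarct libraries lie below both uninjured libraries, in Enpp1 all lie above, and Aldh1a2 is above at day 3 and below later. Except for Cpq and Aldh1a2, the naming rule asked for this separation.

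Adhesion and cell surface genes were the next group. Lsamp, an adhesion protein gene of the immunoglobulin family (ENSMUSG00000061080, chr16:39984361-42181679), holds chr16:41942152-41942895. It had 109 and 170 CPM in the uninjured libraries, 17.9 and 12.5 at day 3, 5.95 and 3.56 at day 7, 16.5 and 7.93 at week 2 and 16.6 and 7.31 at week 4. The groups did not overlap and it fell at each time, by 3.78 ± 0.32 on the log2 scale over all of them (edgeR adjusted p = 3.72e-05), with none of its 5 calls lost without any library. Itga8, an integrin subunit gene, had 40.0 and 42.7 CPM in uninjured libraries and 1.38 to 28.1 CPM after MI, with week 4 at 28.1 and 26.98. It fell over all infarct times (edgeR adjusted p = 0.0464), a call lost without either library of the uninjured, day 3 or week 4 group. Of 47 tested adhesion and axon guidance genes 9 were linked to a lost region, and over all infarct times 2 of these fell, Lsamp and Ntn1, while of the whole list 6 fell and 4 rose. Among all genes tested, 380 of 14968 were linked, to be set beside this list and those below. Whether any list differed from that share was not tested. Ntn1, a guidance cue gene, was chosen after its values were seen, and its call was lost without either uninjured library, either week 4 library or day 7 replicate 2.

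Matrix genes of the resting interstitium followed. Smoc2, a secreted calcium-binding matrix protein gene (ENSMUSG00000023886), lies 81500 bp from chr17:14486290-14486949. Its RNA was 2550 and 3889 CPM in the uninjured libraries, 577 and 337 at day 3, 436 and 235 at day 7, 813 and 321 at week 2 and 1360 and 687 at week 4. No infarct library reached the uninjured level, and week 4 stood above the other infarct groups by mean. Over all infarct times it fell by 2.56 ± 0.35 on the log2 scale (edgeR adjusted p = 0.00358), a call that ended without either uninjured library. Col6a6, a collagen VI chain gene that holds chr9:105754212-105755410, had 32.0 and 49.6 CPM in uninjured libraries and 1.61 to 12.6 CPM after MI. It fell by 2.52 ± 0.45 (edgeR adjusted p = 0.00651), a call lost without uninjured replicate 1. Its neighbour Col6a5, chosen after its values were seen, lies 7625 bp from another lost region, chr9:105846656-105848453. It had 3.001 and 9.11 CPM in uninjured libraries and 0.197 and 0 at day 7, where it fell (edgeR adjusted p = 0.0353), a call that ended without day 7 replicate 2, week 4 replicate 2 or either uninjured library. In all, 6 of 44 tested genes of the matrix list were linked to a lost region. Of these 6, 3 fell at day 3 and 0 rose, while 13 of the whole list fell and 2 rose.

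The other 2 matrix genes that fell at day 3 were Lama2 and Abi3bp, both chosen after their values were seen. Lama2, a laminin chain gene with 2 lost regions in its span, had 713 and 888 CPM in uninjured libraries and 306 and 146 at day 3 (edgeR adjusted p = 0.00715, in every fit with 1 library left out under 0.05). Abi3bp, a matrix protein gene also with 2 lost regions, changed direction with time. It had 288 and 247 CPM in uninjured libraries, 126 and 43.9 at day 3, 270 and 280 at day 7, 770 and 702 at week 2 and 420 and 548 at week 4. It fell by 1.66 ± 0.38 on the log2 scale at day 3 (edgeR adjusted p = 0.0158), a call that ended without either uninjured library. The week 2 level, above both uninjured libraries, missed the threshold (log2 fold change 1.46 ± 0.38, edgeR adjusted p = 0.0882).

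Enzymes and signalling proteins made up the rest of the 12. Ces1d, a carboxylesterase gene of lipid handling (ENSMUSG00000056973, chr8:93166068-93197838), has a lost region at chr8:93197270-93198476 that runs over the upper end of its span. It had 240 and 291 CPM in the uninjured libraries, 19.2 and 11.2 at day 3, 8.86 and 0 at day 7, 8.16 and 5.06 at week 2 and 25.1 and 8.62 at week 4. The groups were far apart. The log2 fold change was -4.83 ± 0.83 over all infarct times (edgeR adjusted p = 0.0204), and this call was lost when any library but the 2 of day 7 was left out. Scara5, a ferritin scavenger receptor gene and a marker of adventitial fibroblasts, had 444 and 519 CPM in uninjured libraries and 6.45 to 100 CPM (median 49.4) after MI. It fell by 3.40 ± 0.60 (edgeR adjusted p = 0.0228), a call that ended without either uninjured library, either week 4 library, day 3 replicate 2 or week 2 replicate 2. Pcsk6, a proprotein convertase gene, had 428 and 639 CPM in uninjured libraries and 60.9 to 146 CPM after MI, and fell at all 4 times and over all of them (by 2.46 ± 0.25, edgeR adjusted p = 0.000211), with the day 7 call lost without day 7 replicate 2 and the week 4 call without uninjured replicate 2 or week 4 replicate 2. Its region chr7:66031813-66032474 ranked 696 of 697 by height. Pde9a, a cyclic GMP phosphodiesterase gene, had 64.1 and 68.6 CPM in uninjured libraries and 6.38 to 20.3 CPM after MI, and it fell by 2.44 ± 0.32 (edgeR adjusted p = 0.000974). Camk1d, a calcium-dependent kinase gene, had 36.1 and 42.5 CPM in uninjured libraries and as little as 2.59 at day 7, and it fell by 2.13 ± 0.32 (edgeR adjusted p = 0.0023).

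Amy1, whose start is printed above, had 27.6 and 30.7 CPM in the uninjured libraries, 9.02 and 9.97 at day 3, 0.246 and 4.76 at day 7, 6.66 and 6.19 at week 2 and 5.07 and 3.99 at week 4. No infarct library reached 10 CPM. It fell by 2.51 ± 0.61 on the log2 scale over all infarct times (edgeR adjusted p = 0.0317), a call that ended without either uninjured library, day 3 replicate 2, week 2 replicate 2 or week 4 replicate 2. Other amylase genes in the table are near copies, and reads that match several of them could be split, so its count is uncertain.

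Only 2 linked genes passed as higher over all infarct times, and each holds lost regions inside its span. The naming rule took rising genes only with all 8 infarct libraries above both uninjured ones, so that separation is no result. Enpp1, which makes pyrophosphate outside cells and restrains mineral deposition, holds chr10:24645025-24645601 and chr10:24695780-24696495. It had 145 and 160 CPM in the uninjured libraries, 437 and 564 at day 3, 454 and 356 at day 7, 646 and 622 at week 2 and 512 and 469 at week 4. The groups did not overlap, and it rose by 1.72 ± 0.19 on the log2 scale (edgeR adjusted p = 0.000267), in each fit with 1 library left out. Foxp1, a forkhead transcription factor gene, had 115 and 127 CPM in uninjured libraries and 148 to 270 CPM after MI, and rose by 0.75 ± 0.17 (edgeR adjusted p = 0.0231), a call that ended without either uninjured library or week 4 replicate 2. Both genes are also linked to regions opened and kept open, 1 of 23 linked regions for Enpp1 and 4 of 94 for Foxp1. Of the 55 tested genes also linked to such a region, 3 fell over all infarct times, Nfib and Rora among them.

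Of 37 tested genes of the resting fibroblast list, 4 were linked to a lost region, Lpl, Lsamp, Scara5 and Smoc2. Over all infarct times all 4 fell, and so did 19 of the whole list. Lpl, the lipoprotein lipase gene, had 942 and 663 CPM in uninjured libraries and 129 to 412 CPM after MI, and fell by 1.63 ± 0.28 (edgeR adjusted p = 0.00713), lost without uninjured replicate 1. It is also a marker of adipocytes and made up most of that list's sum of 843 to 1110 CPM in uninjured libraries. Fabp4 and Car3 were the next most abundant of the list's 13 genes. Cidec, Lep, Plin1 and Ucp1 were at 0 in both uninjured libraries, and Cidec and Lep were at 0 in all libraries. In the adventitial list, Wif1, a secreted Wnt inhibitor gene 20834 bp from chr10:121121484-121122564, had 261 and 219 CPM in uninjured libraries, and 15.1 and 0 at day 3, 0 and 1.57 at day 7, 1.61 and 0 at week 2 and 3.71 and 0.097 at week 4. The groups were widely separated, yet the contrast over all infarct times missed the threshold (log2 fold change -7.13 ± 1.54, edgeR adjusted p = 0.068). Of the alternatives tried it passed only the one without the filter on low counts (edgeR adjusted p = 8.52e-170) and not, for example, DESeq2 (adjusted p = 0.0738). Dpt, the dermatopontin gene, had 2179 and 2394 CPM in uninjured libraries and 1176 to 2050 CPM after MI (edgeR adjusted p = 0.347). The AP-1, cell cycle, macrophage, pericyte, Schwann, mesothelial and erythroid lists held 0 linked genes. With 380 of 14968 tested genes linked, lists this short would hold few or none, so the 0 is no result about them.

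Transcription factor genes of fibroblasts and of heart development were linked in 7 of 60 cases tested, and over all infarct times 4 of the 60 fell and 1 rose. Ebf2 had 283 and 331 CPM in uninjured libraries and 111 to 186 CPM after MI, and fell by 1.04 ± 0.18 (edgeR adjusted p = 0.00554), lost without uninjured replicate 2. Nfib had 731 and 743 CPM in uninjured libraries and 234 to 627 CPM after MI, and fell by 0.98 ± 0.22 (edgeR adjusted p = 0.0208), lost without either uninjured library. Its region chr4:82358411-82359453 lies 396 bp from an always open region. Foxp1 rose, as above. Osr1 (57.7 and 70.7 CPM in uninjured libraries), Tbx18 (13.5 and 23.98) and Zeb1 (243 and 258) did not pass, with edgeR adjusted p = 0.467, 0.722 and 0.196 over all infarct times. Tbx18 had 14.1 to 33.0 CPM after MI, so one uninjured library lay within that range and the other just below it.

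Nuclear receptor and circadian genes were linked in 4 of 43 cases, and over all infarct times 4 of the 43 fell and 1 rose. Nr3c2, the mineralocorticoid receptor gene, holds chr8:77012403-77013496. It had 16.7 and 17.8 CPM in the uninjured libraries, 0.772 and 0.831 at day 3, 3.99 and 4.28 at day 7, 12.5 and 12.7 at week 2 and 23.9 and 11.3 at week 4. It was lowest at day 3, and by week 4 its libraries lay on both sides of the uninjured ones. At day 3 it fell by 4.42 ± 0.66 on the log2 scale (edgeR adjusted p = 0.00148), in each fit with 1 library left out, while at week 4 the log2 fold change was 0.03 ± 0.56. The region had no peak at week 4 in either library, which the rule asked of every lost region. Rora, a nuclear receptor gene of the circadian clock with 2 lost regions, had 174 and 243 CPM in uninjured libraries, 93.6 and 42.3 at day 3 and 159 and 152 at week 4. It fell at day 3 and day 7 (edgeR adjusted p = 0.01 and 0.0118), both lost without uninjured replicate 2 and without the second library of the time itself. Pparg, the adipogenic receptor gene, had 5.14 and 6.77 CPM in uninjured libraries and 0.633 to 16.7 CPM after MI. Zbtb16, a zinc finger gene whose span holds 2 lost regions, had 5.63 and 11.8 CPM in uninjured libraries and 0 to 8.49 CPM after MI, and neither passed in any comparison.

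Among 51 tested growth factor and receptor genes, 9 were linked, Angpt1, Egfr, Fgfr2, Ghr, Igf1, Kitl, Ntrk2, Tek and Vegfa. Of these, 2 fell and 0 rose over all infarct times, Ghr and Tek, while of the whole list 5 fell and 6 rose. Tek, the receptor gene for angiopoietins (chosen after its values were seen), had 289 and 222 CPM in the uninjured libraries, 96.9 and 65.4 at day 3, 115 and 92.1 at day 7, 116 and 124 at week 2 and 95.2 and 95.3 at week 4. No infarct library reached the uninjured level. It fell by 1.37 ± 0.18 on the log2 scale (edgeR adjusted p = 0.000963). Tek also marks endothelial cells and is itself among the most abundant genes, with Cav1 and Fabp4, in the sum of their 21 markers. That sum was 968 to 1231 CPM in uninjured libraries, 612 to 874 at day 3 and 1688 to 2087 at day 7. It was 1308 to 1315 CPM at week 2 and 1003 to 1180 CPM at week 4, the latter within the uninjured range. At day 7 and week 2 Tek and that sum thus lay on opposite sides of uninjured. Ghr, the growth hormone receptor gene (also chosen after its values were seen), had 330 and 394 CPM in uninjured libraries and 101 to 304 CPM after MI. It fell by 0.92 ± 0.21 (edgeR adjusted p = 0.0227), a call lost without uninjured replicate 2. Igf1 (466 and 613 CPM in uninjured libraries) and Egfr (68.4 and 89.4 CPM) did not pass, with edgeR adjusted p = 0.816 and 0.888.

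Aldh1a2, Fzd1, Stc2 and Zbtb20 were chosen after their values were seen, as linked genes with a marked course. Aldh1a2, which makes retinoic acid, holds chr9:71275980-71276667. It had 58.1 and 53.3 CPM in the uninjured libraries, 244 and 144 at day 3, 25.3 and 22.1 at day 7, 17.9 and 12.9 at week 2 and 22.3 and 12.5 at week 4. At day 3 it rose by 1.80 ± 0.35 on the log2 scale (edgeR adjusted p = 0.0056) and fell by 1.86 ± 0.35 at week 2 (edgeR adjusted p = 0.0168), the latter lost without week 2 replicate 2. At week 4 it fell by 1.68 ± 0.35 (edgeR adjusted p = 0.027), lost without either uninjured library or week 4 replicate 2. Fzd1, a Wnt receptor gene 78301 bp from its lost region, had 45.3 and 45.7 CPM in uninjured libraries and 201 and 126 at week 4. It rose there by 1.84 ± 0.38 (edgeR adjusted p = 0.0266), lost without either uninjured library or week 4 replicate 1. Stc2, a secreted glycoprotein gene 94450 bp from the region of height rank 17, had 28.8 and 19.0 CPM in uninjured libraries and 84.5 and 92.8 at week 2. It rose there by 1.89 ± 0.39 (edgeR adjusted p = 0.028), lost without uninjured replicate 2 or week 2 replicate 2. Zbtb20, a zinc finger gene, had 1383 and 1344 CPM in uninjured libraries, 476 and 396 at day 3, 558 and 249 at day 7, 1066 and 977 at week 2 and 842 and 893 at week 4. It fell at day 3 and day 7 (edgeR adjusted p = 0.00463 and 0.00528), in each fit with 1 library left out.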

How the data were processed

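Each library was placed in its group by its title, and every column of the count table matched a sample. The deposited peak lists give, per peak and library, a signal value used here as the authors' fold ratio over background, a p-value and a q-value on the −log10 scale and a score. The deposited RNA table gives expected counts per Ensembl gene, estimated by the authors and not scaled between libraries, and these were rounded to whole counts. Per the submitters' processing notes, the builds were mm10 and GRCm38 and the tools MACS2, Bowtie2 2.3, STAR 2.5.3a, DESeq2, Trim Galore 0.6 and FastQC, with no roles or settings. Which step shifted Tn5 cuts or set the peak threshold is not given in the sources used here, and neither is the strand setting of the RNA counts. The lists keep peaks to a lowest −log10 q of 1.32 to 1.87, each library called separately.

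Peaks were merged by overlap of 1 bp and each region linked to the nearest gene span within 100 kb (Python 3.11.15, pandas 2.3.3). Where a region lay in several spans, the gene with the nearest start was taken, which touched 16 regions. RNA was tested with edgeR 4.0.16 in R 4.3.3 (TMM scaling, filterByExpr, quasi-likelihood fit with robust spread), with all 10 libraries in 1 fit and adjustment over 14968 genes. CPM are counts scaled to TMM library sizes. ATAC-seq depth is unknown from the lists. The merging and the fit were tested on simulated data. Alternatives were DESeq2 1.42.0, other scaling and filters, a replicate block, other links and members, and each library left out. Members, gene lists and comparisons were chosen with earlier results of these data known. Genes were named by having 3 or more regions, by rank (12 falling and 8 rising, mean log2 CPM of 3 or more, all 8 infarct libraries on 1 side) or by 4 of 23 lists. Predicted genes were counted, and values of 2 list genes are not reported here. The region sequences away from starts were not analysed here, so planned motif counts under peak summits were not made.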

Additional observations from a re-analysis of the deposited data

Results flagged for a closer look

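In 6 of the genes named in the report, both libraries of 1 time lay above both uninjured libraries while both libraries of another time lay below them. The difference between the times was not tested in any of them. Aldh1a2 had log2 fold changes of 1.80 at day 3 and -1.86 at week 2, Abi3bp of -1.66 at day 3 and 1.46 at week 2, and Stc2 of -1.16 at day 3 and 1.89 at week 2. Fzd1 had -0.18 at day 3 and 1.84 at week 4. A smaller change of this kind was seen in Styx, with -0.75 at day 3 and 0.32 at week 2. Pparg had 1.00 at day 7 and -1.78 at week 4.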

How the results depend on the processing

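The count of lost regions was 1185 when summits within 150 bases were needed to merge peaks, 292 with uninjured peaks at -log10 q of 5 or more and 1973 with lists of equal length, and 776 when all peaks had to reach that q. Leaving out 1 ATAC-seq library gave 707 to 2772, counts that could only stay or rise because a condition was taken away. DESeq2 called 78, 79, 30 and 30 linked genes lower at day 3, day 7, week 2 and week 4, and 10, 8 and 10 higher at day 7, week 2 and week 4, with 8 higher over all infarct times. Without the filter on low counts 81, 75, 41, 39 and 83 were lower at the 4 times and over all, and 8, 7, 10 and 6 higher at day 7, week 2, week 4 and over all. DESeq2 and the fit without the filter each tested 422 linked genes. At day 3, 18.5% and 19.2% of these fell, beside 6.83% and 6.90% of all genes. A link limit of 50 kb left 2 higher at day 7, of 347 tested. Linking to the nearest start gave 32, 30, 6 and 8 lower at the 4 times, with 7 higher at day 7 and 5 over all, of 292 tested. Linking to the nearest tested gene gave 17 and 7 higher at day 3 and day 7, of 432 tested. Regions of -log10 q of 5 or more gave 24, 21, 4, 5 and 21 lower, and 1 higher at day 3, 2 at day 7, 1 at week 4 and 1 over all. Their linked genes tested were 139, of which 17.3% fell at day 3. Regions from lists of equal length, an alternative chosen after seeing the data, gave 130, 101, 21, 22 and 98 lower and 26, 20 and 5 higher at day 3, day 7 and week 2, with 5 over all. These linked to 1023 tested genes, so 12.7% fell at day 3. For the main links that share was 13.2%, and for all genes it was 4.4%. Leaving out 1 RNA library gave 20 to 59 lower and 4 to 12 higher at day 3, 12 to 55 and 1 to 6 at day 7, 3 to 17 and 1 to 5 at week 2, 4 to 21 and 1 to 5 at week 4 and 13 to 58 and 1 to 3 over all.

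In all 14 RNA fits, and in each of the 5 comparisons, the share of linked genes that fell was above that of all genes and the linked median below theirs. Over the fits the linked median lay between -0.49 and -0.35 over all infarct times. Same-numbered libraries of different groups did not deviate together (correlations of -0.018 to 0.029), so numbers do not pair them. With a replicate block 18 linked genes were lower at week 2 in place of 10, and the other counts stayed within 1.5 times. Of the named genes, the block moved 1 call over all infarct times past the threshold, that of Ntn1 (edgeR adjusted p = 0.053, 0.0409 without it). Without single libraries the log2 fold change over all infarct times changed sign for Ptprd (0.125, 0.226, 0.008 and 0.048, range -0.632 to 0.226), Pparg (0.104, 0.066, 0.162, 0.142 and 0.121, range -0.541 to 0.162), Tbx18 (-0.044, range to 0.794) and Abi3bp (-0.072, range to 0.304), none of which passed. The cause of these changes was not tested. The peak lists carry no read depth, so a region without a peak may hold signal below the caller's threshold.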
